A study of Mus musculus with 8 samples.

Results

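The proximal tubule takes phosphate back from the filtrate across the brush border of its cells, and here 8 genes of that membrane were followed through Lim1 conditional mutant and control embryonic kidneys. They were 4 sodium-phosphate carriers (Slc34a1, Slc34a3, Slc20a1 and Slc20a2), the sodium-proton exchanger Slc9a3, the PDZ scaffolds Pdzk1 and Slc9a3r1, and the linker Ezr. They were taken by name, as the genes to which the array's annotation gave a probe set of their own. All 8 were measured, with 15 probe sets, among 18194 genes and 45101 probe sets on the Affymetrix mouse array.

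RNA of whole kidneys was pooled by genotype and stage, with 9 embryos in the E18.5 mutant pool, 14 in the E18.5 control pool, 17 in the E14.5 mutant pool and 23 in the E14.5 control pool. Mutant embryos carried a floxed and a lacZ null allele of Lim1 (Lim1flox/lacZ; Rarb2-Cretg/+), and control embryos carried a floxed and a wild-type allele (Lim1flox/+; Rarb2-Cretg/+). The Rarb2-Cre transgene, which acts in the metanephric mesenchyme and not in the whole kidney, was thus present in both, and the Lim1 alleles were kept on C57BL/6J and 129/SvEv stock, while the transgene was founded on C57BL/6J and SJL/J stock. Each pool was measured on 2 arrays, which are 2 target preparations of 1 RNA, so their spread is technical. With 1 biological replicate for each condition, no pair of pools was tested against each other.

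Array medians ranged from 225 to 243 signal units, and precision is limited by the number of arrays. The median fold between the arrays of a pool was 1.16 in E18.5 mutants, the noisiest pool, and 1.08 to 1.11 in the other 3 pools. Lim1 itself, listed as Lhx1, had 2 probe sets with no common direction. The first (1421951_at) read 459 and 379 in E18.5 mutants against 342 and 382 in E18.5 controls, with overlap, and 323 and 290 in E14.5 mutants against 388 and 365 in E14.5 controls, without. The second (1450428_at) read 296 and 333 in E18.5 mutants against 370 and 352 in E18.5 controls, lower in mutants. At E14.5 it read 563 and 554 in mutants against 449 and 517 in controls, higher in mutants. Where these probe sets lie relative to the deleted part is not given in the sources used here, so they do not check the labels.

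In the mature kidney Slc34a1 encodes NaPi-IIa, the main apical phosphate carrier of the proximal tubule, and Slc34a3 encodes its close relative NaPi-IIc. Slc20a1 and Slc20a2 encode PiT1 and PiT2, which are made in many tissues. Slc9a3 encodes NHE3, which moves protons into the lumen in exchange for sodium and so drives the recovery of bicarbonate. Slc9a3r1 (NHERF1) and Pdzk1 (NHERF3) hold carriers at the membrane through PDZ domains, and ezrin, the product of Ezr, ties these complexes to the actin core of the microvillus. Parathyroid hormone and FGF23 with its co-receptor Klotho cause the kidney to remove NaPi-IIa from the membrane.

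The genes lie on 6 mouse chromosomes in the build GRCm38.p6. Slc34a1 spans chr13:55399622-55414695 and Slc9a3 spans chr13:74086255-74169442. Slc34a3 lies at chr2:25228897-25234270, Slc20a1 at chr2:129198773-129211615 and Slc20a2 at chr8:22476700-22569616. Pdzk1 lies at chr3:96829456-96870926, Slc9a3r1 at chr11:115163341-115181178 and Ezr at chr17:6738131-6782780.

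Windows of 300 bases at the start sites, from 250 before to 50 after, were available from RefSeq (GRCm38.p6) for 7 of the 8 genes. The 3 shown are those of Slc34a1 and Pdzk1, which had the lowest mutant over control ratios of the 8, and of Slc9a3, which met the size criteria in no comparison. Capitals mark GTTAAT, a short site bound by HNF1 factors, and CAAAGTCC, a core bound by HNF4 factors, each on either strand. These 2 motifs do not overlap and were chosen after the windows had been read, and a match is a string of letters, not a tested site.
Slc34a1, chr13:55399398-55399697, plus strand: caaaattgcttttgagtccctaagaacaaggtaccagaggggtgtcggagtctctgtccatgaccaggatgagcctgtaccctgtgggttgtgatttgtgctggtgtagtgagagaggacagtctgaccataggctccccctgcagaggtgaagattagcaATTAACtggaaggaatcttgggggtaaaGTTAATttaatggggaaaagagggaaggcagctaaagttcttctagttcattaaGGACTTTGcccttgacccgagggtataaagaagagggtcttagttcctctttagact
Pdzk1, chr3:96829815-96830114, plus strand: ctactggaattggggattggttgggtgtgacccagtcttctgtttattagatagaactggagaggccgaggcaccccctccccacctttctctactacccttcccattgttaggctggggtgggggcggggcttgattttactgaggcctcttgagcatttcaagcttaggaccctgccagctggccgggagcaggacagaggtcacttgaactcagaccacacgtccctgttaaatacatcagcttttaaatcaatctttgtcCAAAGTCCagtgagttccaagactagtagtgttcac
Slc9a3, chr13:74121163-74121462, plus strand: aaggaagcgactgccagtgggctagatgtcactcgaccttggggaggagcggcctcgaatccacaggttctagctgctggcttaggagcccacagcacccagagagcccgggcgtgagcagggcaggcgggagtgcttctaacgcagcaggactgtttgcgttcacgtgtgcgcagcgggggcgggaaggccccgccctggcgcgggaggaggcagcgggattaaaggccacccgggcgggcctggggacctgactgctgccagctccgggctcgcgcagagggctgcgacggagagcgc

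The Slc34a1 window held GTTAAT at 2 places, beginning 89 and 61 bases before the start, and CAAAGTCC once on the other strand, beginning 7 bases before it. The Pdzk1 window shown held CAAAGTCC once, beginning 14 bases after the start, while the window at a second annotated start of Pdzk1 held neither string. Neither string was found in the windows of the other 5 genes. Over 32544 mouse promoter windows of the same length, CAAAGTCC occurred in 1.43% and GTTAAT in 7.13%. TATAAA and CCAAT were searched as well, on either strand. TATAAA lay in the windows of Slc34a1 and Slc20a1, and in 13.6% of all windows. CCAAT lay in those of Slc34a3, Slc20a1, Pdzk1 and Slc9a3r1, and in 37.4% of all windows. The windows also differed in composition. Those of Slc34a1 and Pdzk1 held 2 and 4 CpG dinucleotides, against 25 in Slc9a3, 27 in Slc9a3r1, 36 in Slc20a1 and 38 in Ezr. The median over all windows was 7, and Slc34a3 held 2. A second annotated start of Pdzk1 and of Slc20a1 had windows with 7 and 6 CpG dinucleotides.

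Levels were read as linear signal intensity. Slc34a1 read 85.2 and 73.8 in E18.5 mutants, against 5061 and 5027 in E18.5 controls. At E14.5 it read 61.4 and 71.3 in mutants, against 142 and 144 in controls. The E18.5 control arrays thus stood alone. Only those 2 of the 8 arrays reached the minimum signal used here, the 40th percentile of all probe sets on the array, which lay between 177 and 194 units.

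Pdzk1 followed the same order of pools at a higher floor. It read 219 and 215 in E18.5 mutants, against 3421 and 3292 in E18.5 controls. At E14.5 it read 144 and 160 in mutants, against 363 and 397 in controls. Mutant and control arrays did not overlap at either stage, and the E14.5 mutant arrays were its only ones under the minimum signal.

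Slc9a3r1 had 3 probe sets that differed among themselves. On the 2 dimmer ones E18.5 control arrays stood well apart. The first of these (1438115_a_at) read 649 and 775 in E18.5 mutants, against 1572 and 1596 in E18.5 controls. The other (1438116_x_at, of a kind that can share probes with other transcripts) read 740 and 853 in E18.5 mutants, against 1814 and 1800 in E18.5 controls. At E14.5 both gave overlapping genotypes. The brightest (1450982_at) read 1339 and 1323 in E18.5 mutants, against 1442 and 1731 in E18.5 controls, a smaller gap with no overlap.

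Ezr was bright in every pool. Its brightest probe set read 1264 and 1466 in E18.5 mutants, against 2400 and 2366 in E18.5 controls. At E14.5 it read 861 and 972 in mutants, against 1074 and 1235 in controls. The second probe set gave 1180 and 1243 in E18.5 mutants, against 2105 and 2144 in E18.5 controls. Mutant arrays lay below control arrays of the same stage on both.

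The remaining carriers and the exchanger met the size criteria in no comparison. Slc34a3, on its 1 probe set, read 464 and 389 in E18.5 mutants, against 557 and 450 in E18.5 controls, and between 411 and 438 on the 4 E14.5 arrays. The genotypes overlapped at both stages. Slc20a2 read 592 and 572 on its brightest probe set in E18.5 mutants, against 592 and 552 in E18.5 controls, and between 548 and 602 at E14.5. Its second probe set (1434235_at) read 366 and 466 in E18.5 mutants, against 551 and 519 in E18.5 controls, with no overlap. At E14.5 it read 563 and 526 in mutants, against 436 and 581 in controls, with overlap. The 2 probe sets of Slc20a2 thus differed at E18.5. Slc9a3 read 604 and 486 in E18.5 mutants, against 612 and 596 in E18.5 controls, and between 476 and 594 at E14.5. Its second probe set stayed between 178 and 230 on all 8 arrays, close to the minimum signal.

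Slc20a1 had the most uneven probe sets. The brightest read 501 and 644 in E18.5 mutants, against 601 and 644 in E18.5 controls. At E14.5 it read 725 and 714 in mutants, against 685 and 829 in controls. A second, 1446441_at, gave 422 and 243 on the arrays of the E14.5 mutant pool alone, a fold of 1.74 between duplicates. The third, 1438824_at, stayed between 60.2 and 149 units and under the minimum signal on all 8 arrays.

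**Figure D1:**
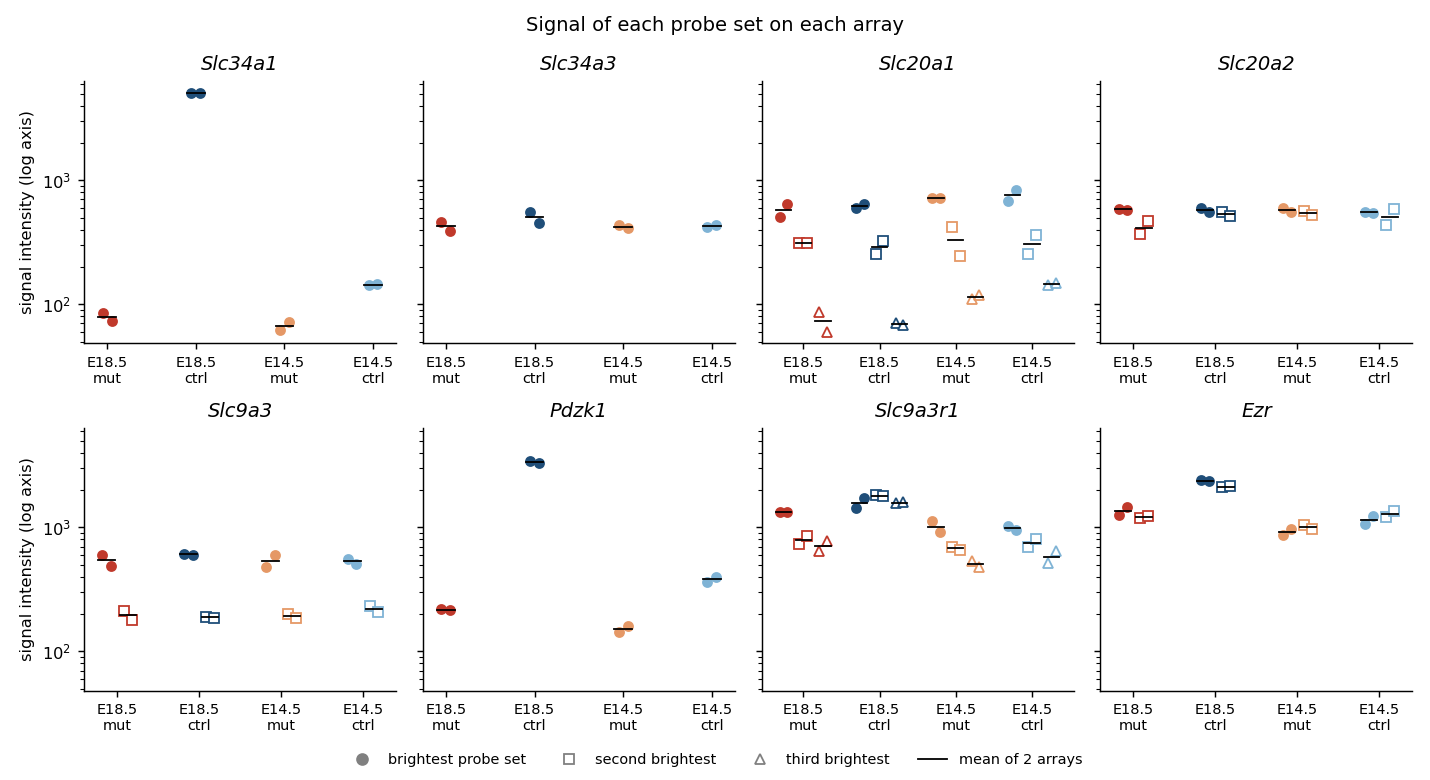
Signal intensity (log axis) of each probe set of the 8 genes on each of the 8 arrays, by pool, with mutants left of controls of the same stage; points are single arrays, symbols are probe sets and bars are the mean of 2 arrays. Slc34a1 and Pdzk1 averaged 5044 and 3356 units in the E18.5 control pool and at most 143 and 380 in the others, while the brightest probe sets of Slc34a3, Slc20a2 and Slc9a3 averaged between 422 and 604 in every pool.

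The first question was what the mutant kidney lacked at E18.5. A gene was counted as changed if any of its probe sets had a ratio of pool means of at least 2, larger than the fold between duplicate arrays in both pools, with the higher mean times the ratio above 100 and both arrays of the higher pool at the minimum signal. By these criteria 3 of the 8 genes were lower in E18.5 mutants, Slc34a1, Pdzk1 and Slc9a3r1, and 0 were higher. Of all genes, 2.23% were lower. The 8 genes were chosen with earlier results of these data known, so this and the later shares are backgrounds and not tests. The ratio of a pool to another cannot tell fewer proximal tubule cells from less RNA in each cell.

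Slc34a1 had the largest gap of the 8. Its signal was 63.5-fold lower in E18.5 mutants (range over the 4 array pairings 59 to 68.6). Because the mutant arrays were under the minimum signal, the fold is better read as at least 27.2, with the mutant mean set at that minimum. Pdzk1 was 15.5-fold lower (15.1 to 15.9), with the mutant mean of 217 above the minimum signal.

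Slc9a3r1 was 2.23-fold lower (2.03 to 2.46) by 1438115_a_at and 2.27-fold lower (2.11 to 2.45) by 1438116_x_at. Its brightest probe set gave 1.19-fold, within the 1.2-fold spread of the duplicates, so its call rests on 2 of 3 probe sets. Ezr gave 1.75-fold lower by each of its 2 probe sets (1.61 to 1.9 and 1.69 to 1.82), short of the 2-fold criterion but with a range clear of 1.

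The log2 ratios of mutant over control for the brightest probe sets of the others were -0.24 for Slc34a3, -0.12 for Slc20a1, 0.02 for Slc20a2 and -0.15 for Slc9a3. In each of these the pairings of arrays gave both signs. The second Slc20a2 probe set gave 1.29-fold lower in E18.5 mutants (1.11 to 1.51), with all 4 pairings on 1 side. The median over the 8 genes was -0.25, against 0.03 over all genes, whose central 90% lay between -0.53 and 0.35.

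At E14.5 only Pdzk1 of the 8 met the criteria, where 0.121% of all genes were lower in mutants. Its signal was 2.51-fold lower in E14.5 mutants (2.28 to 2.76), or at least 2.08-fold with the mutant mean, which lay under the minimum signal, set at that minimum. Slc34a1 gave 2.16-fold lower (1.99 to 2.35), but the arrays of both pools were under the minimum signal. With no minimum it also met the remaining criteria. Ezr read 1.26-fold and 1.27-fold lower by its probe sets, with every pairing on the same side. The other 5 genes gave log2 ratios between -0.07 and 0.06 by their brightest probe sets.

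**Figure D2:**
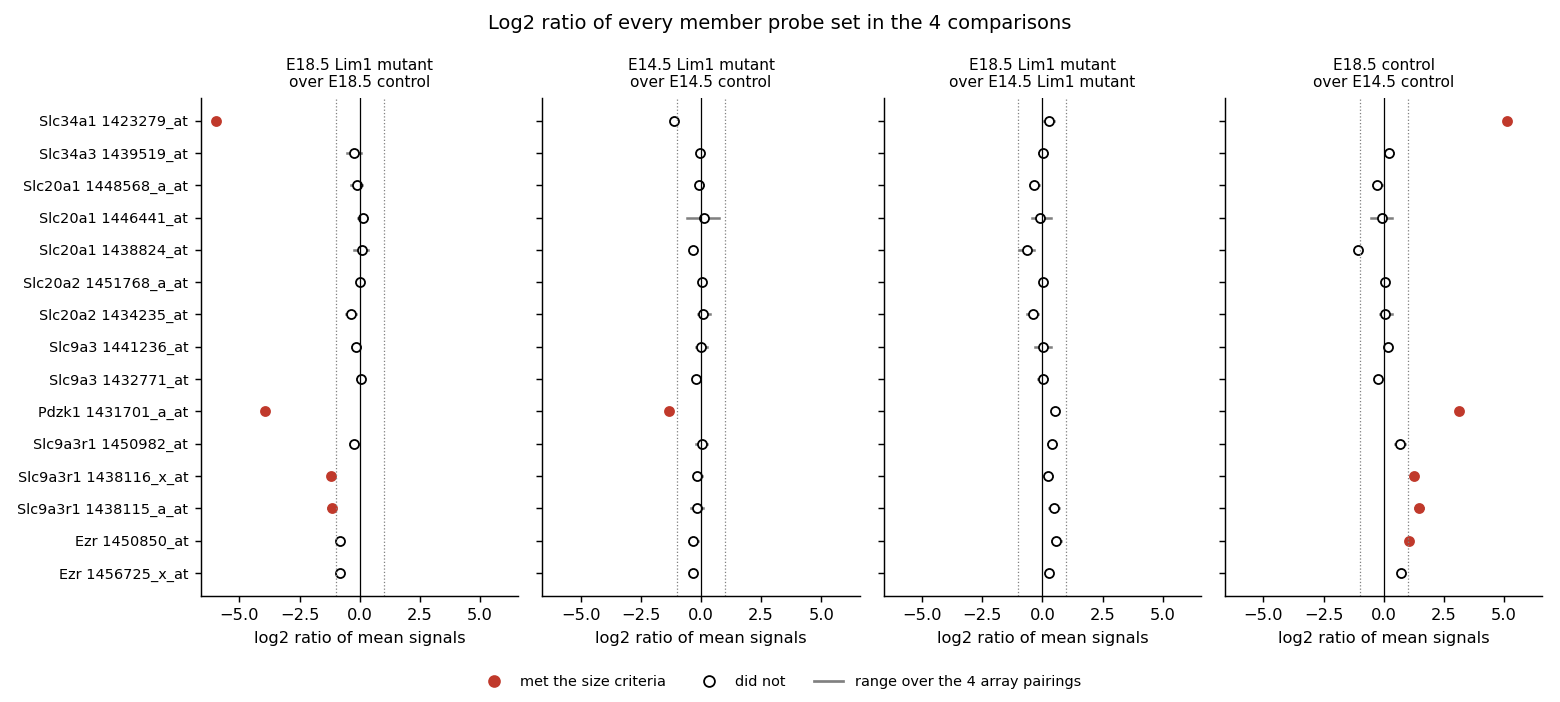
Log2 ratio of pool mean signals for the 15 probe sets in the 4 comparisons named above each panel; filled points met the size criteria, lines span the 4 array pairings and dotted lines mark a 2-fold ratio. Filled points appear for Slc34a1, Pdzk1 and Slc9a3r1 at E18.5, for Pdzk1 at E14.5, for 4 genes between control stages and for none between mutant stages.

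The second question was how the 8 genes moved between stages. In control kidneys 4 of 8 were higher at E18.5 than at E14.5, against 4.75% of all genes, and 0 were lower. Slc34a1 was 35.2-fold higher (34.8 to 35.6), or at least 26.7-fold with the E14.5 controls at the minimum signal. Pdzk1 was 8.83-fold higher (8.29 to 9.41).

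Slc9a3r1 was 2.74-fold higher (2.46 to 3.1) and 2.41-fold higher (2.23 to 2.63) in E18.5 controls by the same 2 probe sets as above, and 1.6-fold by the brightest. Ezr was 2.06-fold higher (1.92 to 2.24) by its brightest probe set and 1.66-fold by the other. This call lay at the edge of the criterion, and it ended with quantile normalization, within array numbers or without the first E14.5 control array. Slc34a3, Slc20a2 and Slc9a3 gave log2 ratios of 0.23, 0.05 and 0.19, and Slc20a1 gave -0.28. The dim Slc20a1 probe set 1438824_at was 2.11-fold lower in E18.5 controls, with all 4 arrays under the minimum signal.

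In mutant kidneys 0 of 8 genes met the criteria between E18.5 and E14.5, where 2.84% of all genes did so in either direction. This 0 comes from the size criteria and no test was run on it. Pdzk1 gave the ratio 1.43 (1.35 to 1.52) and Ezr gave 1.49 (1.3 to 1.7). Slc34a1 gave 1.2 with both pools under the minimum signal. The second Slc20a2 probe set was 1.31-fold lower at E18.5 (1.13 to 1.54).

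The stage change in mutants minus that in controls, on the log2 scale, was -4.88 for Slc34a1 (range over pairings -5.11 to -4.65). Its mean was under the minimum signal in 3 of the 4 pools, and with those means set at the minimum the difference was -4.72. For Pdzk1 it was -2.63 (-2.81 to -2.45), and -2.90 with the E14.5 mutant mean set at the minimum. For Slc9a3r1 it was -0.98 (-1.36 to -0.61), -1.03 (-1.31 to -0.77) and, on the brightest probe set, -0.29. Ezr gave -0.47 by both probe sets. By their brightest probe sets the other 4 genes lay between -0.21 and -0.04. Their other probe sets gave -0.46 for Slc20a2 (-0.96 to -0.01), 0.24 for Slc9a3, and 0.43 and 0.00 for Slc20a1, the 0.43 at signals under the minimum. Over all genes, each by its brightest probe set, the median was 0.01, with the central 90% between -0.62 and 0.42. This difference uses all 4 pools and leaves no degree of freedom, so it is a description with no test.

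**Figure D3:**
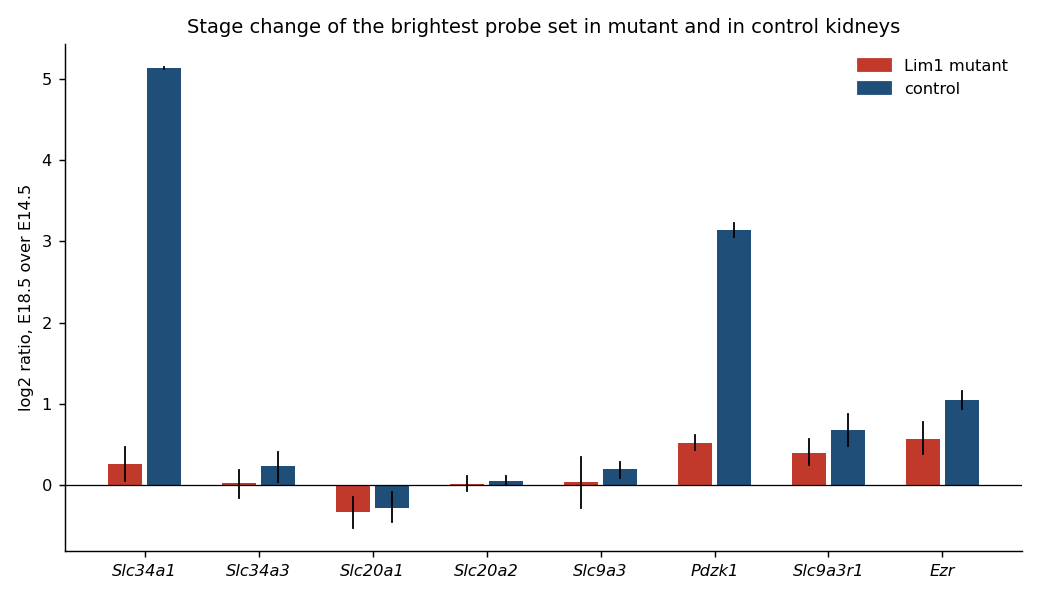
Stage change, as log2 of the E18.5 signal over that at E14.5, for the brightest probe set of each gene, in Lim1 mutants (left bar) and controls (right bar); lines span the 4 array pairings. The control bars of Slc34a1 (5.14) and Pdzk1 (3.14) exceed those of mutants (0.26 and 0.52), while the 2 bars of Slc20a1 and Slc20a2 are of like height.

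An additive fit of genotype and stage with limma, on the 4 pool means of log2 signal, was the only test the design allowed, with 1 residual degree of freedom. For genotype it called 0 of 27061 probe sets (0%) at an adjusted p under 0.05. An unadjusted p under 0.05 was reached by 1045, a share of the probe sets that is itself under 0.05. Among those 1045 were 5 member probe sets, both of Ezr and 1 each of Slc34a1, Pdzk1 and Slc9a3r1, all lower in mutants. The genotype effect of Slc34a1 was -3.54 ± 1.10 (SE, log2; limma adjusted p = 0.9998), and that of Pdzk1 was -2.63 ± 0.60 with the same adjusted p. The fit takes the stage effect as equal in both genotypes, whereas the stage ratios of these 2 genes differed between the genotypes as given above.

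For stage the same fit called 8.62% of probe sets. Of the 8 genes, Ezr passed, at 0.81 ± 0.15 higher at E18.5 by its brightest probe set (limma adjusted p = 0.04559). Its second probe set gave 0.50 ± 0.15 (limma adjusted p = 0.1203). Slc9a3r1 gave 0.54 ± 0.13 by its brightest probe set (limma adjusted p = 0.072), and Slc34a1 gave 2.69 ± 1.10 (limma adjusted p = 0.1994). The Ezr call was lost without the first E14.5 mutant array or without the second E18.5 control array. Without the second E18.5 mutant array, Slc34a1 and Pdzk1 passed for genotype, and 4 genes passed for stage.

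The other genes of phosphate and proton handling were read from lists, in which a gene counts if any probe set met the criteria. For the list and marker counts below, 2.23% of all genes were lower in E18.5 mutants. In E18.5 over E14.5 controls 4.75% were higher, and between mutant stages 2.84% were called in either direction. The share higher in E18.5 mutants was not computed. Among 5 other phosphate carriers measured, 2 were lower in E18.5 mutants and the same 2 were higher in E18.5 than in E14.5 controls. These were Slc17a1, an organic anion carrier first cloned as a phosphate transporter, and its relative Slc17a3. Slc17a1 averaged 99.5 in E18.5 mutants and 783 in E18.5 controls, 7.87-fold lower, or at least 4.23-fold with the mutant mean at the minimum signal. Slc17a3 averaged 225 in E18.5 mutants and 732 in E18.5 controls, 3.25-fold lower. Xpr1, the phosphate exporter, gave 1.34-fold and Slc34a2, the carrier of gut and lung, 1.08-fold, neither past the criteria. Of 7 other sodium-proton exchangers, 0 were called in any of the 4 comparisons, and their median log2 ratio at E18.5 was 0.04. Only 3 of the 7 reached the minimum signal in each pool by their brightest probe sets. The rest lay under it in every pool, where the criteria allow no call by that probe set.

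Of 16 other scaffold and apical cytoskeleton genes, 5 were lower in E18.5 mutants and 8 were higher in E18.5 than in E14.5 controls. Vil1, the microvillus actin bundler villin, averaged 109 in E18.5 mutants and 584 in E18.5 controls, 5.34-fold lower. Eps8, an actin capping and bundling protein, was 4.53-fold lower, and Pdzd3, the scaffold NHERF4, 2.46-fold lower. The mutant means of these 3 lay under the minimum signal, and set at it they gave folds of at least 3.15 for Vil1, 3.41 for Eps8 and 1.53 for Pdzd3, the last short of 2. Cdhr5, a microvillus cadherin, was 2.26-fold lower. Pdzk1ip1, a small membrane partner of Pdzk1, was 3.05-fold lower in E18.5 mutants and 8.32-fold higher in E18.5 than in E14.5 controls. In mutants, 2 of the 16 genes were higher at E18.5 than at E14.5, Pdzk1ip1 (3.18-fold) and Msn. Msn was called there by a probe set other than its brightest, which gave 1.13-fold. Rdx, Msn and Slc9a3r2, the nearest relatives of Ezr and Slc9a3r1, gave 1.21-fold lower, 1.3-fold lower and 1.01-fold higher in E18.5 mutants, none past the criteria.

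Among 14 genes of phosphate hormones and their receptors, 4 were lower in E18.5 mutants and 5 were higher in E18.5 than in E14.5 controls. Kl, which encodes Klotho, averaged 50.6 in E18.5 mutants and 1797 in E18.5 controls, 35.5-fold lower. Cyp27b1, the enzyme that makes active vitamin D, averaged 75.1 and 1345, 17.9-fold lower. Pth1r, the receptor of parathyroid hormone, averaged 364 and 1619, 4.45-fold lower. The mutant means of Kl and Cyp27b1 lay under the minimum signal, which bounds their folds at 9.7 and 7.26 or more. Cyp24a1, which inactivates vitamin D, was called by a probe set other than its brightest, which gave 1.25-fold. The hormone genes Pth and Fgf23 read about 107 and 52.4 in E18.5 mutants and 97.6 and 62.1 in E18.5 controls, under the minimum in both, and the FGF receptors Fgfr1, Fgfr3 and Fgfr4 stayed within 1.38-fold.

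Of 11 kinases and cyclic AMP anchors that act on the carriers, Sgk1, a kinase that raises NHE3 activity, was the 1 called. It averaged 664 in E18.5 mutants and 1510 in E18.5 controls, 2.28-fold lower. Of 13 genes of acid and bicarbonate handling, 8 were lower in E18.5 mutants, among them Pck1 (22.1-fold lower, or at least 6.81-fold with the mutant mean at the minimum signal), the gluconeogenic enzyme tied to ammonia production, and the carbonic anhydrases Car12 (4.32-fold), Car15 (4.03-fold) and Car4 (3.38-fold). Slc4a4, the basolateral sodium-bicarbonate carrier, was called by another probe set than its brightest, which gave 1.07-fold. Slc26a6, an apical anion exchanger, read 257 in mutants and 258 in controls. Between stages in mutants, 2 of the 13 genes were higher at E18.5, Car4 (2.31-fold) and Car12 (2.76-fold). With their E14.5 mutant means set at the minimum signal these folds were at least 1.54 and 1.38. The median log2 ratio of this list was -1.09 and those of the other 5 lists lay between -0.50 and 0.04, against 0.03 over all genes.

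**Figure D4:**
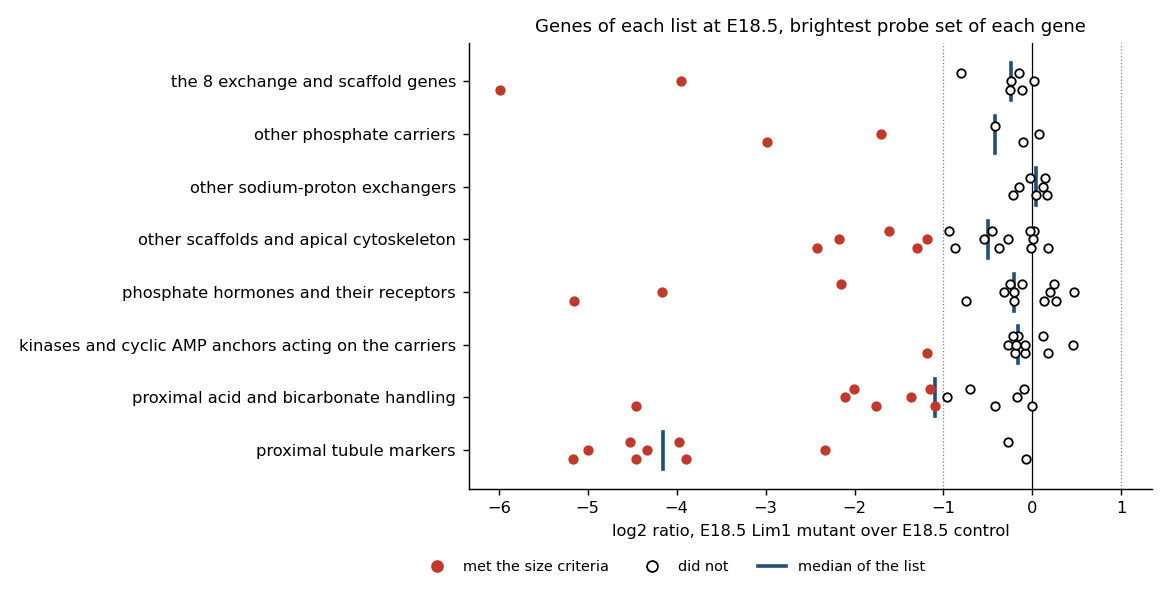
Log2 ratio of E18.5 mutant over E18.5 control for the brightest probe set of each gene, by list; filled points met the size criteria by that probe set, bars mark list medians and dotted lines a 2-fold ratio. The 8 genes spread from -5.99 (Slc34a1) to 0.02 (Slc20a2), and the medians were -1.09 for acid and bicarbonate genes and -4.15 for proximal tubule markers; genes called by another probe set appear as open points.

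Most markers of the proximal tubule moved in the same direction as Slc34a1 and Pdzk1, while Slc34a3, Slc20a1 and Slc20a2 met the criteria in no comparison. Of 10 markers, 9 were lower in E18.5 mutants and the same 9 were higher in E18.5 than in E14.5 controls. Their summed signal was 2270 and 2327 on E18.5 mutant arrays, against 18967 and 20038 on E18.5 control arrays. On E14.5 arrays it was 2032 and 1797 in mutants, against 2271 and 2163 in controls. None of the 10 was at 0, but few reached the minimum signal outside E18.5 controls. Those that did were 4 of the 10 in E18.5 mutants, 3 in E14.5 mutants and 2 in E14.5 controls. The part of the marker shift in the values of the 8 genes was not tested. Slc5a2, the glucose carrier of the early proximal tubule and the 1 marker not called, gave 520 in E18.5 mutants and 546 in E18.5 controls. Hnf4a was called by a probe set other than its brightest. The brightest gave 1.22-fold lower in E18.5 mutants, which is not the size of the called change. Hnf4a was also the 1 of the 10 markers called lower in E14.5 mutants, again not by its brightest probe set. Of all genes, 0.121% were lower there. Between stages in mutants 1 of the 10 was called, Aqp1. It was 2.86-fold higher at E18.5, or at least 2.23-fold with the E14.5 mutant mean at the minimum signal.

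Between E18.5 mutants and E18.5 controls, a smaller part of each other marker list met the criteria. Of 9 ureteric bud and collecting duct markers, 2 were lower in E18.5 mutants and 1 was higher. Aqp2 averaged 289 in E18.5 mutants and 2646 in E18.5 controls, 9.16-fold lower. Aqp3 (lower) and Ret (higher) were called by probe sets other than their brightest, which gave 1.78-fold lower and 1.44-fold higher. Of 5 podocyte markers, 2 were lower. Of 4 intestinal markers, 1, the villin gene named above, was lower. Of 7 cap mesenchyme, 6 stroma, 6 endothelium, 4 red cell and 6 macrophage markers, 0 were called. The summed cap mesenchyme signal was 5476 and 6201 in E18.5 mutants, against 3606 and 3741 in E18.5 controls, and the part of that shift was not tested either.

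The genes nearest by pattern were found for each member called by its brightest probe set, which leaves out Slc9a3r1. They were found from the centred log2 means of the 4 pools, over 13440 genes at or above the minimum mean signal. All genes share these 4 pools, so the distances are descriptions, and some of the means they use lie under the minimum signal. Nearest to Slc34a1 were S100g, which encodes the calcium buffer calbindin-D9k (distance 0.43), the glutathione transferase gene Gsta2 (0.57) and Kl (0.76), where the median gene stood at 5.08. S100g averaged 85.3 in E18.5 mutants and 3853 in E18.5 controls. Nearest to Pdzk1 were Amn, the membrane partner of cubilin (0.19), the organic cation carrier gene Slc47a1 (0.26) and the tight junction gene Cldn2 (0.29), with the median gene at 3.48. Amn averaged 73.7 in E18.5 mutants and 1326 in E18.5 controls. Nearest to Ezr were Zdhhc9 (0.09), Tmem267 (0.10) and Vamp8 (0.12), with the median gene at 1.04. Vamp8 averaged 546 in E18.5 mutants and 988 in E18.5 controls.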

How the data were processed

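The deposited values are linear signal intensities, 1 for each probe set on each array, that the authors scaled to a signal of 250 in Microarray Suite 5.0 and, per the series' design text, normalized in dChip by an invariant set. The array medians are above those which that text gives, for a reason not given in the sources used here. Raw images and detection calls were not used here. Of 45101 probe sets, 34958 carry 1 gene symbol (34754 matched by gene identifier to current symbols), 932 several and 9211 none listed.

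Ratios were taken between arithmetic means of duplicates, with the methods' criteria of size and a 40th percentile minimum signal in place of present calls. Levels were read from the brightest probe set. limma 3.58.1 in R 4.3.3 was fitted to pool means of log2(signal + 1) for the 27061 probe sets whose average signal was not under its 40th percentile, with Benjamini-Hochberg adjustment. Other steps used Python 3.11.15. Steps were tested on simulated data.

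The 8 genes and the lists were chosen with earlier results of these data known. Named genes are all members, from each list at most the 2 highest and 2 lowest called ratios of a comparison, and the 3 nearest patterns of members called by their brightest probe set; others were named after their values were seen. Promoter sequences are from RefSeq.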

Additional observations from a re-analysis of the deposited data

How the results depend on the processing

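The counts of the 8 genes meeting the size criteria held within 1.5 times under the alternatives run, with 1 exception. With no minimum signal, 2 genes (Slc34a1 and Pdzk1) in place of 1 were lower in E14.5 mutants. Reading the brightest probe set only dropped Slc9a3r1, leaving 2 genes lower in E18.5 mutants. For limma's genotype effect, leaving out arrays gave 0 to 2 genes, the 2 (Pdzk1 and Slc34a1) without the second E18.5 mutant array. For its stage effect, leaving out arrays gave 0 to 4 genes, with 0 without the first E14.5 mutant or the second E18.5 control array, 2 without the first and 4 without the second E18.5 mutant array. No filter and quantile normalization each gave 2 for stage, the second gene being Slc20a1 and Slc9a3r1 in turn. The cause was not tested. The log2 ratio of Slc34a1 in E18.5 mutants over controls lay between -6.10 and -5.30 over the alternatives, and that of Pdzk1 between -3.99 and -3.67. No called log2 ratio changed sign among the members' called probe sets and the list genes called by their brightest probe set. Running the alternatives for those list genes and for the 2 called Slc9a3r1 probe sets was chosen after seeing the data. The labels give array numbers with no further meaning. The array 1 minus array 2 differences of the 6 pairs of pools correlated between -0.4535 and 0.4203. Arrays of different pools thus did not vary independently, and the reason was not tested. With the replicate block, 3, 1, 3 and 0 genes were called in the 4 comparisons, Ezr being lost between control stages, and limma's counts were 0 and 1 as before. Signals under the 40th percentile limit what can be read for Slc34a1 outside E18.5 controls.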
